A study of Mus musculus with 6 samples.

Results

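Mitochondrial ribosomal protein genes were taken as all protein-coding genes whose symbol starts with Mrpl (large subunit) or Mrps (small subunit). This gave 78 genes, 49 of the large and 29 of the small subunit, among 21794 protein-coding genes and 35498 genes in all with a deposited transcript. Each of the 78 passed the filter on low counts that left 14237 genes for testing. Another 5 genes with these prefixes are annotated as processed pseudogenes and were not counted.

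The hearts came from C57BL/6J mice of 8 to 10 weeks, 7 days after an infarction made by tying off the LAD artery, and poly-A RNA was sequenced from ventricle below the ligature. All mice were on a tamoxifen diet from surgery to collection and carried Postn CreER+/-, a tamoxifen-inducible Cre recombinase driven by the periostin promoter, which is active in activated fibroblasts. The CTL group (Postn CreER+/-; Runx1 WT, n = 3) had 1 female and 2 males, and the RUNX1 FB-KO group (Postn CreER+/-; Runx1 fl, a conditional allele, n = 3) had 2 females and 1 male. Deletion is therefore expected in periostin-expressing cells only, while the RNA came from the whole tissue. The comparison asks how loss of Runx1, a DNA-binding transcription factor, from these cells alters the infarcted heart.

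Mitochondrial ribosomes translate the few respiratory chain proteins that the mitochondrial genome encodes. Their RNAs come from mitochondrial DNA, while all of their proteins are encoded in the nucleus, made in the cytosol and imported. Some of these proteins descend from bacterial ribosomal proteins and others have no bacterial homologue. Heart muscle cells are dense in mitochondria, and mutations in several of these genes cause cardiomyopathy in people.

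Libraries held 16598561 to 19987279 estimated reads, and the genes that the mitochondrial genome encodes took 5.36% to 7.11% of them in CTL and 10.37% to 24.49% in RUNX1 FB-KO. Levels between libraries are given below as CPM, read counts brought to a common library total with TMM factors, always in the order of replicates 1, 2 and 3. Runx1 was at 96.4, 86.9 and 85.5 CPM in CTL, against 17.5, 10.9 and 67.4 CPM in RUNX1 FB-KO, so the library labelled RUNX1 FB-KO replicate 3 stood apart from the other two. The log2 fold change of Runx1 was -1.48 (SE 0.63) with an adjusted p of 0.154 by edgeR, and -2.61 (adjusted p = 0.000142) without replicate 3. Many counts and list medians below, and the values of some genes, are therefore given with and without that library. Other comparisons between the groups use all 6 libraries. The labels list 6 samples and do not describe how each was taken, so p-values measure the spread between these samples.

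Most mitochondrial ribosomal protein genes had higher values in RUNX1 FB-KO than in CTL, on a scale set by the typical gene. Their median log2 fold change was 0.87, against -0.06 over all 14237 genes tested. Of the 78, 76 had a log2 fold change above 0, where the share over all genes was 46.0%. In 46 of them all 3 RUNX1 FB-KO values lay above all 3 CTL values (20.2% of all genes did so), and in none did all 3 lie below (18.8% of all genes). The other 32 overlapped between groups. No member passed an adjusted p of 0.05 by edgeR, and neither did any other gene (0.0%). The smallest adjusted p among the members was 0.0682.

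The number of calls depended on the test and on 1 library. An unadjusted p under 0.05 was reached by 58 members, all higher in RUNX1 FB-KO, against 19.3% of all genes in that direction. At an adjusted p under 0.1 the count was 43 (12.5% of all genes). DESeq2 called 47 members higher at 0.05 (15.6% of genes with an adjusted p), and edgeR with no filter on low counts called 17 (4.21%). Without RUNX1 FB-KO replicate 3, edgeR called 65 members higher (25.1% of the genes tested there) and the member median was 1.15. No member was called lower in any of these.

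The size of the difference depended on what the libraries were scaled to. Summed over the 78 genes, the level was 1790 ± 136 CPM in CTL and 3380 ± 1080 CPM in RUNX1 FB-KO (SD, n = 3 each). As TPM, a share of all transcripts after division by length, the sum was 4950, 4260 and 4460 in CTL and 4490, 5210 and 4660 in RUNX1 FB-KO, and these ranges overlapped. With library size alone as the scale, the median of all genes lay at -0.52, a shift of -0.46, and 58 of the 78 members were above 0 with a median of 0.34. On that scale 76 members lay above the all-gene median, as with TMM. The 13 protein genes of the mitochondrial genome took 113000, 138000 and 105000 TPM in CTL and 370000, 287000 and 193000 TPM in RUNX1 FB-KO, so less of the TPM total was left to other transcripts. How much of the gap between the CPM and TPM sums this makes up was not tested.

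**Figure D1:**
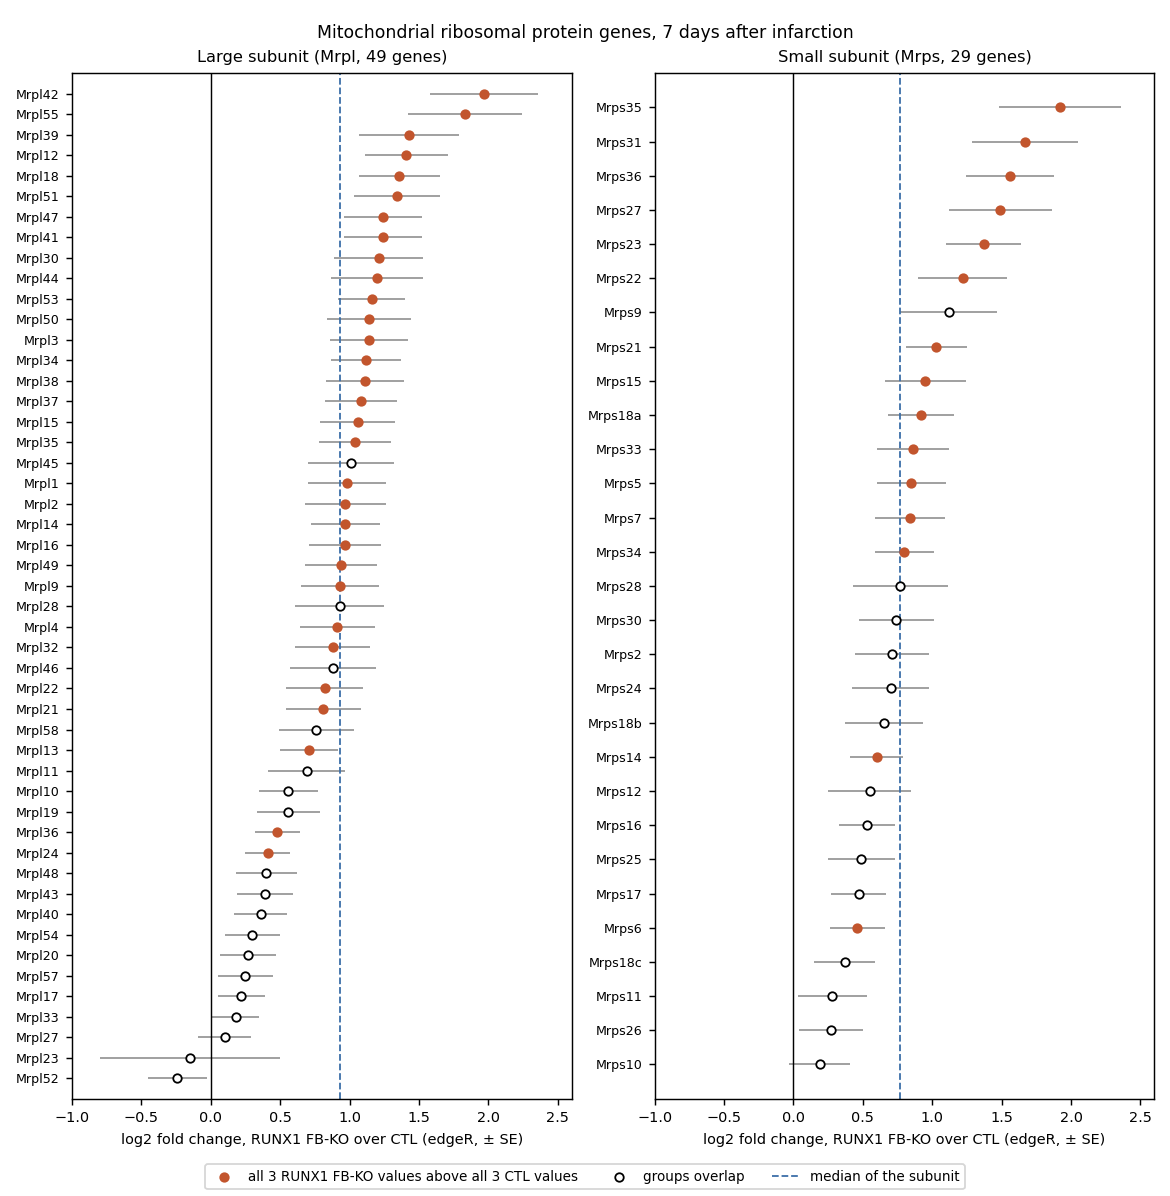
Log2 fold change of each of the 49 large subunit (left) and 29 small subunit (right) genes, RUNX1 FB-KO over CTL, with its standard error; filled points are genes whose groups do not overlap, and dashed lines are the subunit medians. Mrpl52 and Mrpl23, at the bottom of the left panel, are the 2 genes below 0.

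The large and small subunits differed from CTL to a like extent. The median log2 fold change was 0.93 for the 49 large subunit genes and 0.77 for the 29 small subunit genes. The groups did not overlap in 31 large and 15 small subunit genes, all higher in RUNX1 FB-KO (20.2% of all genes), and 38 and 20 had an unadjusted p under 0.05 (19.3% of all genes). The mean log2 CPM of a subunit, less its CTL mean, was 0.98, 1.15 and 0.23 in RUNX1 FB-KO for the large subunit and 0.96, 1.18 and 0.23 for the small one. The means thus differed by at most 0.03 in any RUNX1 FB-KO library, although the medians differed by 0.16. Without replicate 3 the medians were 1.24 and 1.02, and 40 large and 25 small subunit genes were called higher (25.1% of the genes tested there).

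The balance between subunits was also computed per length. The mean log2(TPM + 0.5) of the large subunit less that of the small one was 0.12, 0.17 and 0.13 in CTL and 0.10, 0.08 and 0.14 in RUNX1 FB-KO. The group means, 0.14 ± 0.03 and 0.11 ± 0.03 (SD, n = 3 each), differed by -0.03, which is no more than the spread between replicates.

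Levels between libraries followed a like order in most of the 78 genes. RUNX1 FB-KO replicate 3 was the lowest of its group in 75 of 78 genes and replicate 2 the highest in 68. Replicates 1 and 2 both exceeded every CTL library in 72 genes. Replicate 3 lay within the CTL range for 27 genes, 14 of the large and 13 of the small subunit. The share of all genes with each of these patterns was not computed, so the counts describe the members only. The same order was seen in the mean log2 CPM, less the CTL mean, of listed nuclear respiratory chain subunits (2.07, 2.39 and 0.74 in RUNX1 FB-KO). The median coefficient of variation was 11.3% within CTL and 31.9% within RUNX1 FB-KO.

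**Figure D2:**
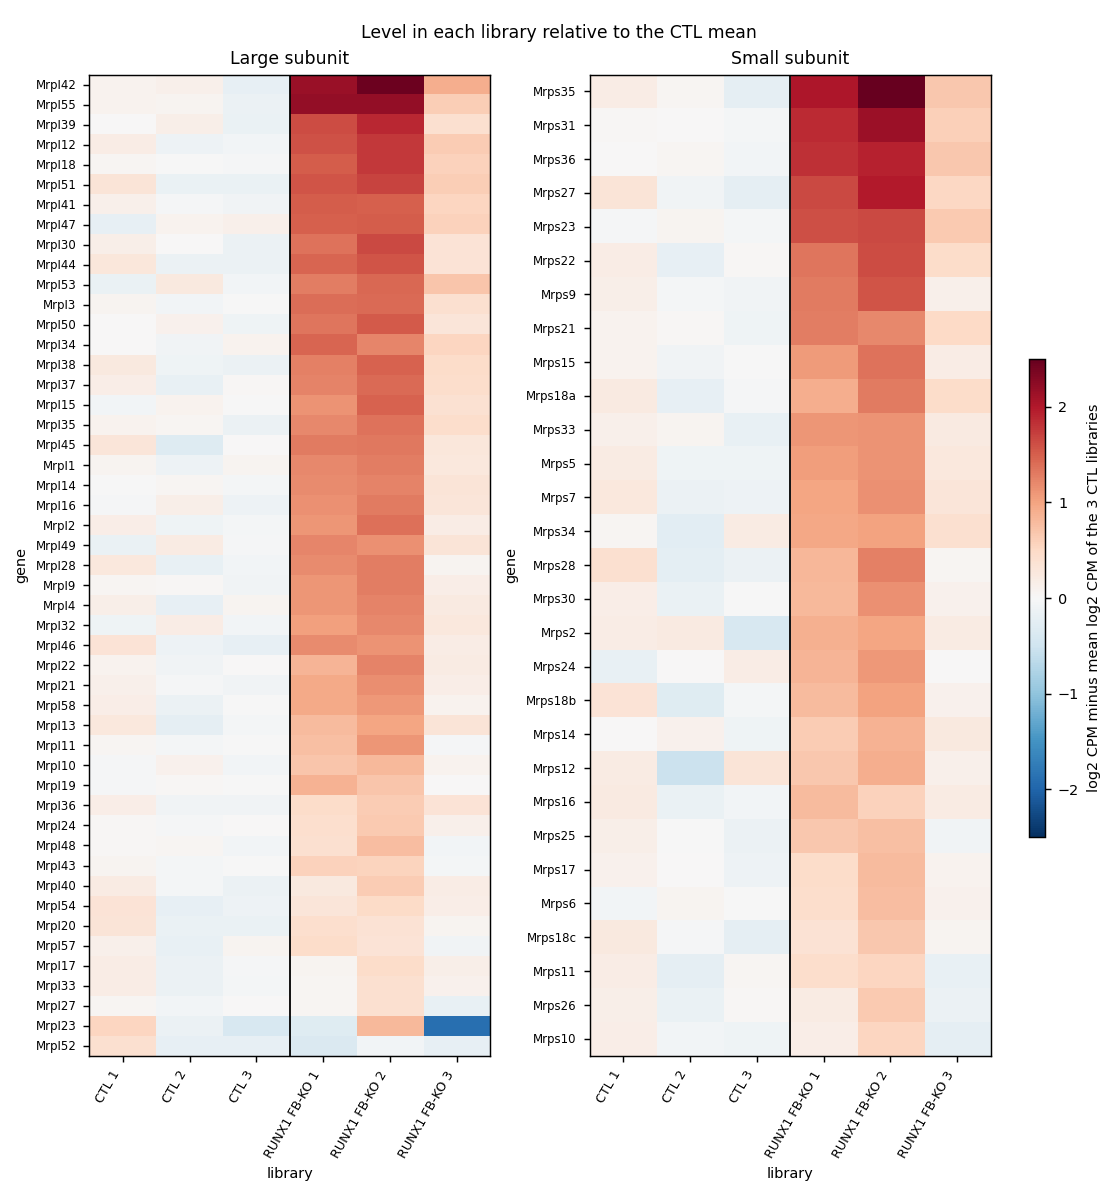
Log2 CPM of each gene in each of the 6 libraries, less the mean of the 3 CTL libraries, as colour, with genes ordered by log2 fold change within each subunit. RUNX1 FB-KO replicates 1 and 2 are darkest, and replicate 3 was the lowest of its group in 75 of 78 genes.

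The largest difference in the large subunit was that of Mrpl42, a protein with no bacterial homologue (GRCm38 chromosome 10, 95480805 to 95501940, minus strand). It was at 44.5, 45.3 and 36 CPM in CTL, against 186, 229 and 77.9 CPM in RUNX1 FB-KO. Every RUNX1 FB-KO library was above every CTL library, and replicate 3 was the lowest of the 3. The log2 fold change was 1.97 (SE 0.39, adjusted p = 0.0682 by edgeR) and 2.35 without replicate 3 (adjusted p = 7.6e-05).

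Mrpl55, also without a bacterial homologue (chromosome 11, 59202486 to 59206134, plus strand), was at 11.5, 11.3 and 9.70 CPM in CTL, against 49.6, 49.8 and 16.5 CPM in RUNX1 FB-KO. Replicates 1 and 2 were level with each other and replicate 3 was nearer to CTL than to them. Its log2 fold change was 1.83 (SE 0.41). Next came Mrpl39 (1.43, SE 0.36), another protein that mitochondrial ribosomes have gained, and Mrpl12 (1.41, SE 0.30), described below.

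In the small subunit, too, the largest differences, apart from that of Mrps36, were in proteins without a bacterial homologue. Mrps35 (chromosome 6, 147042764 to 147073991, plus strand) was at 18.0, 16.4 and 13.6 CPM in CTL, against 64.8, 91.7 and 25.3 CPM in RUNX1 FB-KO, a log2 fold change of 1.92 (SE 0.44). Mrps31 was at 9.56, 9.51 and 9.10 CPM in CTL, against 34.2, 41.6 and 14.2 CPM in RUNX1 FB-KO (1.67, SE 0.38). In both, no RUNX1 FB-KO library fell to the CTL range. Mrps27, a protein of the pentatricopeptide repeat family, was at 20, 15.2 and 13.7 CPM in CTL, against 50.6, 63.7 and 23.1 CPM in RUNX1 FB-KO (1.49, SE 0.37). Mrps23 was at 43.5, 46.1 and 42.9 CPM in CTL, against 135, 138 and 69.6 CPM in RUNX1 FB-KO, and had the smallest unadjusted p of the small subunit (0.00148; log2 fold change 1.37).

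Of the 76 genes above 0, 27 exceeded 1 on the log2 scale, 19 in the large and 8 in the small subunit. Sorted by descent, the 46 genes with a bacterial homologue had a median log2 fold change of 0.79 and the 31 without had 1.08; Mrps36 was counted in neither. The direction of that difference held in the large subunit (0.89 for 28 genes and 1.08 for 21) and in the small one (0.68 for 18 and 1.04 for 10). Groups did not overlap for 26 of the 46 and 19 of the 31, all higher in RUNX1 FB-KO (20.2% of all genes). By this count the subunits differed. In the large subunit it was 67.9% of genes with a bacterial homologue and 57.1% of those without. In the small subunit it was 38.9% and 70.0%. Without RUNX1 FB-KO replicate 3 the medians of the 46 and the 31 were 1.09 and 1.36. The difference between these sets was not tested, since they share libraries and were sorted with earlier results known.

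A few genes stood at or near the level of CTL. In all, 14 members had a log2 fold change between -0.4 and 0.4. The lowest was Mrpl52 (chromosome 14, 54426909 to 54429756, plus strand), a protein without a bacterial homologue and among the most abundant members. It was at 34.5, 22.6 and 22.6 CPM in CTL, against 20.2, 24.8 and 22.6 CPM in RUNX1 FB-KO, and the groups overlapped. The log2 fold change was -0.24 (SE 0.21, adjusted p = 0.442 by edgeR), and -0.20 without replicate 3. CTL replicate 1 was the highest of all 6 libraries for this gene.

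Mrpl23, which in bacteria sits at the exit of the peptide tunnel, was the other exception, with a log2 fold change of -0.15 (SE 0.65) and the fewest reads of any member. It was given 112, 69 and 52 estimated reads in CTL and 42, 77 and 18 in RUNX1 FB-KO. Its sign rested on single libraries, with values of 0.17 without CTL replicate 1 and 0.34 without RUNX1 FB-KO replicate 3. Its processed pseudogene Mrpl23-ps1 holds 77.0% of the 31-base words of the Mrpl23 coding transcript and was given 555, 472 and 470 reads in CTL and 559, 658 and 486 in RUNX1 FB-KO. Reads of the gene and the copy cannot be told apart over most of the transcript, so the value of Mrpl23 is uncertain. Summed, both were at 29.7, 24.2 and 25.9 CPM in CTL, against 39.3, 57.4 and 25.7 CPM in RUNX1 FB-KO, a log2 fold change of 0.62, a summing chosen after the data were seen.

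The other 12 genes in this range included ones with and without bacterial counterparts. In the large subunit these were Mrpl27 (0.10, SE 0.19), Mrpl33 (0.18, SE 0.17), Mrpl17 (0.22, SE 0.17), Mrpl57 (0.25, SE 0.20), Mrpl20 (0.27), Mrpl54 (0.30), Mrpl40 (0.36) and Mrpl43 (0.39). In the small subunit they were Mrps10 (0.19, SE 0.22), Mrps26 (0.27, SE 0.23), Mrps11 (0.28, SE 0.25) and Mrps18c (0.37, SE 0.22). The groups overlapped for each of the 12, and with library size alone as the scale all 12 lay below 0, at -0.40 to -0.12. Without RUNX1 FB-KO replicate 3, Mrpl43 was called higher, and the other 13 of the 14 genes were the members that were not called. The next lowest of the small subunit was Mrps6 (0.46, SE 0.20), for which all 3 RUNX1 FB-KO values lay above all 3 CTL values.

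To show the genes at both ends of the range, the 120 bases upstream of the RefSeq start (GRCm38.p6) are given 5′ to 3′ on the strand of the gene for the pair with the largest differences in the large subunit, Mrpl42 (chr10:95501950-95502069, minus strand) and Mrpl55 (chr11:59202366-59202485, plus strand), and for the lowest, Mrpl52 (chr14:54426789-54426908, plus strand). Capitals mark the word CCGGAAG or its reverse complement, the core bound by ETS family factors such as GABPA, a known regulator of nuclear genes for mitochondrial proteins.
Mrpl42: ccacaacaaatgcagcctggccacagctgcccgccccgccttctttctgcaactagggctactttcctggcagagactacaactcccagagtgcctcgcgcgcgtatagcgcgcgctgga
Mrpl55: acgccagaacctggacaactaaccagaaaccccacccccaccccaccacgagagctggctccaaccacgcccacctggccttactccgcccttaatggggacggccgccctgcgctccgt
Mrpl52: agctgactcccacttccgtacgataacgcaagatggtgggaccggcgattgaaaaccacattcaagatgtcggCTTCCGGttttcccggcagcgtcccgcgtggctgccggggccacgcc
Of these 3 stretches, only that of Mrpl52 holds the word.

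Promoter windows from 250 bases before to 50 after the RefSeq start were found for 69 of the 78 members. The ETS word occurred on either strand in 26 of them (37.7%), against 9.93% of 27025 genes with a window. The word GCGCATGC of NRF1, a factor named for nuclear genes of respiration, occurred in 8 (11.6%, against 3.05% of all). AAGATGGC, of the factor YY1, occurred in 12 (17.4%, against 3.19%), and CAAGGTCA, of the oestrogen-related receptors, in 2 (2.9%, against 1.76%). In all, 39 members held at least 1 of the 4 words. Members with the ETS word had a median log2 fold change of 0.78 and those without 0.93. A match is a string of letters and was not tied to binding here.

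Many of these genes share a start region with a neighbour on the opposite strand, and 32 of the 78 had such a protein-coding partner with its start within 1000 bases. Among 29 pairs with both genes tested, both were above 0 in 19 and the partner was below 0 in 10. The median log2 fold change of the 28 partners that were not members was 0.11. Of these pairs the stretches between the annotated genes are shown for 3, read 5′ to 3′ on the strand of the ribosomal gene, because they separate genes that differed in direction or moved together: Mrpl49 and Fau (chr19:6057786-6057843, minus strand), Mrpl30 and Mitd1 (chr1:37890412-37890476, plus strand), and Mrps27 and Ptcd2 (chr13:99344706-99344785, plus strand), with the ETS word in capitals.
Mrpl49-Fau: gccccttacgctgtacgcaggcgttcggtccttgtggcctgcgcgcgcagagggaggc
Mrpl30-Mitd1: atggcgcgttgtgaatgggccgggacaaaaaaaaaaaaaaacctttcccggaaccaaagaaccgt
Mrps27-Ptcd2: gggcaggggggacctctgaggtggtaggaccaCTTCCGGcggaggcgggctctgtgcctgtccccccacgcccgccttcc
The word was present between Mrps27 and Ptcd2 and in neither of the other stretches.

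Mrpl49 and Fau, whose starts lie 59 bases apart, differed in direction. Mrpl49 was at 14.2, 18.3 and 15.5 CPM in CTL, against 36.9, 35.1 and 19.9 CPM in RUNX1 FB-KO (log2 fold change 0.94, SE 0.26). Fau, which encodes a fusion of a ubiquitin-like protein with a protein of the cytosolic small ribosomal subunit, was at 390, 338 and 391 CPM in CTL, against 181, 202 and 264 CPM in RUNX1 FB-KO (-0.79, SE 0.22). The groups overlapped for neither gene, and neither passed by edgeR (adjusted p = 0.0829 and 0.0814).

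Mrpl30 and Mitd1 lay 66 bases apart. Mrpl30 was at 48.2, 44.0 and 39.7 CPM in CTL, against 113, 137 and 55.4 CPM in RUNX1 FB-KO (1.21, SE 0.32), and Mitd1, a protein of cell abscission, was at 10.6, 7.37 and 7.71 CPM in CTL, against 3.01, 4.68 and 6.84 CPM in RUNX1 FB-KO (-0.82, SE 0.35). Here too the groups were apart in opposite directions. Mrps27 and Ptcd2, a protein of mitochondrial RNA processing, had like values of 1.49 and 1.35 (SE 0.34). Partners that encode respiratory complex I proteins exceeded the ribosomal gene, with Ndufs6 at 2.01 beside Mrpl36 at 0.48, and Ndufb5 at 1.99 beside Mrpl47 at 1.24. The single pair within the set, Mrpl46 (0.88, SE 0.31) and Mrps11 (0.28, SE 0.25), overlapped between groups for both genes.

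**Figure D3:**
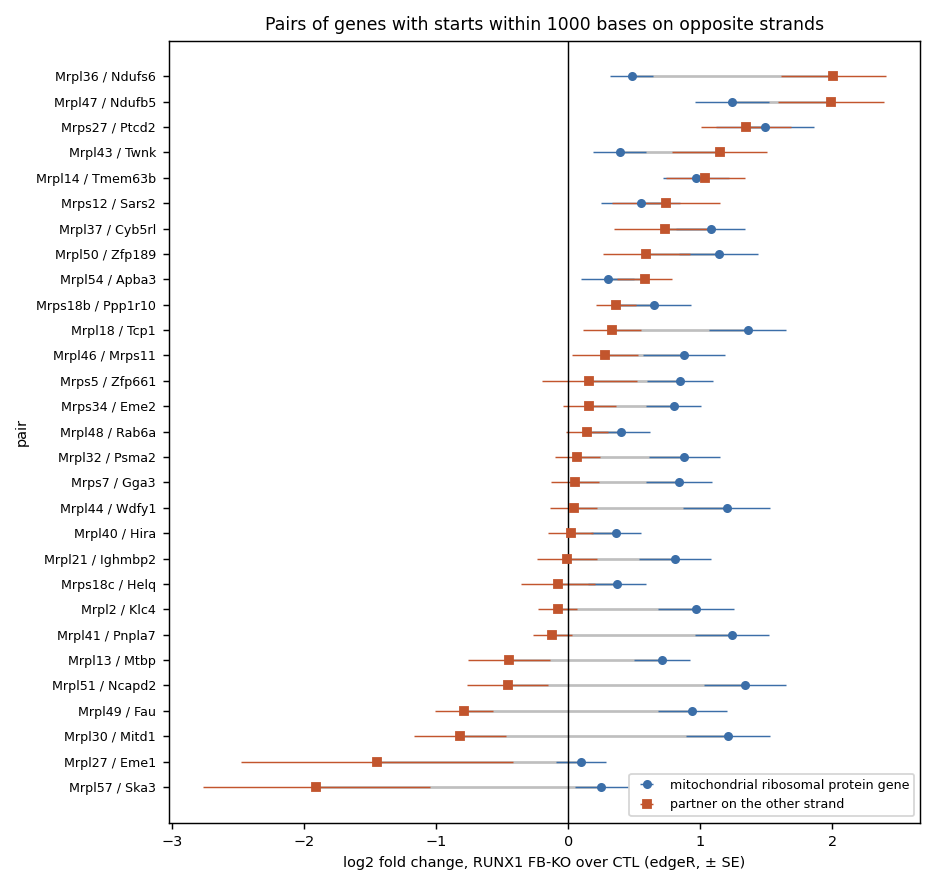
Log2 fold change with standard error of 29 ribosomal protein genes (circles) and of the gene with its start within 1000 bases on the other strand (squares), ordered by the partner. The partner was below 0 in 10 pairs, including Fau and Mitd1, and the circle is above 0 in all 29.

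Genes with known roles in the ribosome were also compared. The stalk that recruits elongation factors is built from Mrpl10, Mrpl11 and Mrpl12. Mrpl12, which has also been described as a partner of the mitochondrial RNA polymerase, was at 53.6, 42.9 and 44.7 CPM in CTL, against 142, 160 and 73.1 CPM in RUNX1 FB-KO (1.41, SE 0.30). Mrpl10 (0.56, SE 0.21) and Mrpl11 (0.69, SE 0.28) were nearer 0 and their groups overlapped.

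The 3 members linked by descent to bacterial protein S18 had values of 0.92 (Mrps18a, SE 0.24), 0.65 (Mrps18b, SE 0.28) and 0.37 (Mrps18c, SE 0.22), and the groups were apart only for Mrps18a. Mrps18a and Mrps30 (0.74, SE 0.27) carry small subunit names but sit in the large subunit. Counted by position, the medians were 0.93 for 51 large and 0.74 for 26 small subunit genes. Mrpl58, a peptidyl-tRNA hydrolase built into the large subunit, had 0.76 (SE 0.27) with overlapping groups.

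Mrps36 is named for the ribosome but has been described as a subunit of the 2-oxoglutarate dehydrogenase complex of the citric acid cycle. It was at 17.0, 17.4 and 16.0 CPM in CTL, against 59.2, 63.4 and 26.8 CPM in RUNX1 FB-KO, with a log2 fold change of 1.56 (SE 0.32), the third highest of the Mrps genes. Of its sequence words, 21.0% are shared with other genes, mostly pseudogenes listed at few or no reads.

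Mutations of Mrpl3, Mrpl44, Mrps14 and Mrps22 have been linked to cardiomyopathy in people. Their log2 fold changes were 1.14 (SE 0.28), 1.20 (SE 0.33), 0.60 (SE 0.19) and 1.22 (SE 0.32). For all 4 the groups did not overlap, with RUNX1 FB-KO higher (20.2% of all genes). Mrpl3 was at 35.2, 31.9 and 33.2 CPM in CTL, against 88.4, 89.5 and 44.0 CPM in RUNX1 FB-KO. Mrpl44, an RNase III-like protein, was at 21.3, 15.9 and 15.8 CPM in CTL, against 48.1, 51.7 and 22.1 CPM in RUNX1 FB-KO, where replicate 3 exceeded the highest CTL library only slightly. Mrps22 was at 8.00, 6.12 and 7.16 CPM in CTL, against 17.9, 21.9 and 9.70 CPM in RUNX1 FB-KO.

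Levels of the genes among themselves were compared per length, as TPM in CTL. They ran from 8.20 TPM for Mrpl1 to 363 TPM for Mrpl33, a 44.3-fold range, with medians of 43.8 TPM in the large and 39.2 TPM in the small subunit. The most abundant were Mrpl33 at 363 ± 52.2 TPM, Mrps21 at 280 ± 18.7 TPM, Mrpl52 at 271 ± 66.7 TPM and Mrpl42 at 165 ± 15.3 TPM (SD, n = 3 each). The first 3 have effective lengths of 244, 177 and 156 bases, at which a TPM value is most sensitive to the length estimate. The lowest in the large subunit were Mrpl1, Mrpl19 (8.46 ± 3.61 TPM), Mrpl23 (10.3 ± 2.41 TPM) and Mrpl47 (14.0 ± 2.95 TPM). In the small subunit they were Mrps31 (11.4 ± 0.302 TPM), Mrps30 (11.6 ± 1.44 TPM), Mrps22 (12.2 ± 1.76 TPM) and Mrps2 (15.5 ± 3.14 TPM).

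Neighbours in this order were mostly not separable, with CTL ranges overlapping for 75 of 77 adjacent genes. The steps that did not overlap lay between Mrpl33 and Mrps21 and between Mrpl52 and Mrpl42. In RUNX1 FB-KO the order at the top changed, with Mrpl42 at 368 ± 101 TPM, Mrps21 at 330 ± 6.70 TPM, Mrpl33 at 266 ± 74.2 TPM and Mrpl52 at 145 ± 47.7 TPM. Across the 78 genes, the log2 fold change correlated with log2 TPM in CTL at r = -0.16 and with log2 effective length at r = 0.22. The 39 shorter genes, split at 785 bases, had a median log2 fold change of 0.76 and the 39 longer ones 0.97.

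**Figure D4:**
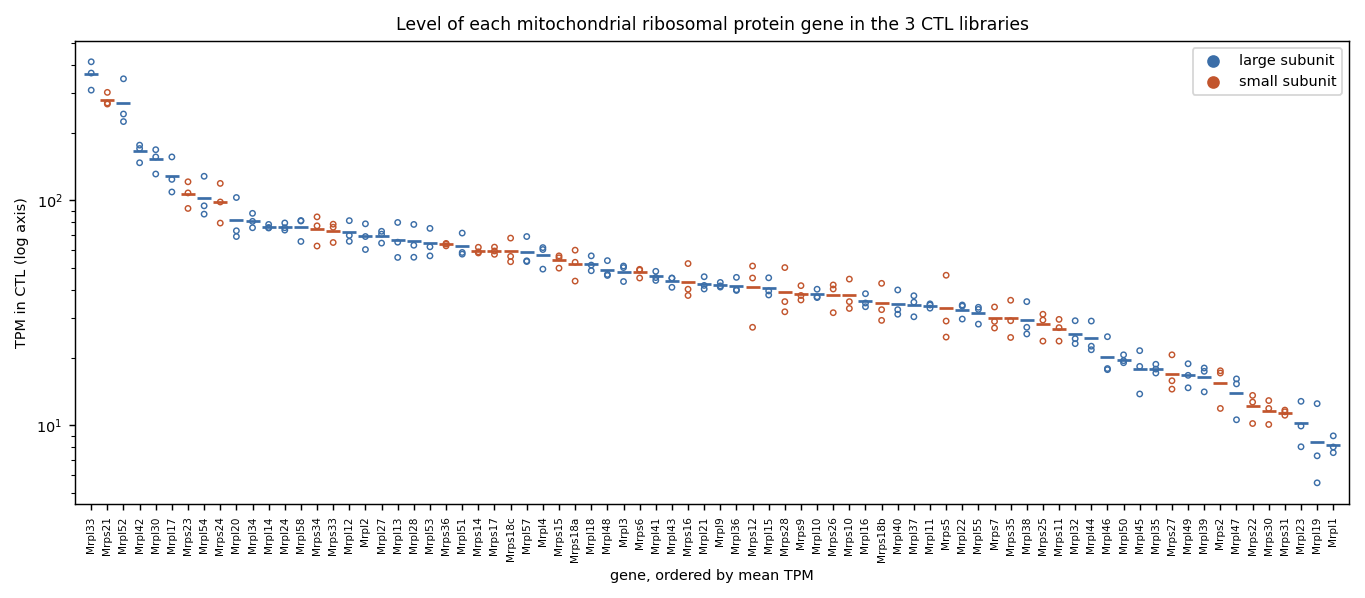
TPM of each gene in the 3 CTL libraries (circles) with its mean (bar), on a log axis, ordered by the mean and coloured by subunit. Both subunits spread over the whole range, from 363 TPM for Mrpl33 to 8.20 TPM for Mrpl1.

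Transcripts annotated as retaining an intron took 5.20%, 5.39% and 6.12% of the reads of the 78 genes in CTL and 3.73%, 3.72% and 4.25% in RUNX1 FB-KO. The groups did not overlap in this share, and protein-coding transcripts took 87.7% ± 0.775 and 89.7% ± 0.993 (SD, n = 3 each). The same share over all genes was not computed. Reads were pooled over genes of unlike fold change, and how far this makes up the difference in the share was not tested. Some genes share sequence or position with others, so their reads could be divided differently. In 11 of the 78, more than 20% of the 31-base words occur in another gene, with Mrpl53 (84.4%, in the overlapping gene model Gm42688), Mrps34 (73.8%) and Mrps25 (68.9%) the highest. In addition, 25 members overlap another protein-coding gene, 22 of them on the opposite strand, and the strand setting of the counting is not given in the sources used here.

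Other parts of the mitochondrial translation machinery were described from lists. Of 5 mitochondrial ribosomal proteins with other symbols all were above 0, with a median log2 fold change of 0.85, led by the small subunit protein Ptcd3 (1.97, SE 0.40) and followed by Dap3 (0.92) and Chchd1 (0.85). Of 27 assembly and ribosomal RNA modification factors, 26 were above 0 (median 0.64). In 11 the groups did not overlap, all higher in RUNX1 FB-KO (20.2% of all genes). The rRNA methyltransferase Mrm3 was at 1.82, 3.17 and 3.38 CPM in CTL, against 15.8, 19.1 and 6.99 CPM in RUNX1 FB-KO (2.32, SE 0.44), and the RNA-binding proteins Fastkd2 and Grsf1 had 1.55 and 1.37.

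Of 15 translation factors, 14 were above 0 (median 1.05) and 12 did not overlap, all higher in RUNX1 FB-KO (20.2% of all genes). Among the 12 were the elongation factor Tufm (1.68, SE 0.33), Taco1, an activator of COX1 translation (2.05), and Lrpprc, which stabilises mitochondrial messenger RNAs (2.31). Of 19 aminoacyl-tRNA synthetases 18 were above 0 (median 0.88), with Fars2 at 1.31, Mars2 at 1.19 and Yars2 at 1.43. The exception was Gars (-0.37, SE 0.20), which serves both the cytosol and mitochondria. No gene of these lists passed an adjusted p of 0.05 by edgeR with all 6 libraries. Without RUNX1 FB-KO replicate 3, 5 of the 5 ribosomal proteins with other symbols were called higher, as were 21 of the 27 assembly factors, 12 of the 15 translation factors and 16 of the 19 synthetases (25.1% of the genes tested there).

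Of 7 genes of mitochondrial transcription, 5 were above 0 (median 0.94), with Mterf2 at 1.42, Tfb2m at 1.29 and Tefm at 1.25. Among 12 nuclear regulators of mitochondrial genes, 7 were above 0 and the median was 0.22. The oestrogen-related receptors Esrrb (2.34, SE 0.44) and Esrrg (2.06, SE 0.42) and the coactivator Ppargc1b (2.19, SE 0.42) did not overlap between groups and were higher in RUNX1 FB-KO. So was the coactivator Ppargc1a, with the largest log2 fold change of the 12 (3.28, SE 0.71). The regulators Nrf1 (-0.32, SE 0.17) and Gabpb2 (-0.27, SE 0.18) had all 3 RUNX1 FB-KO values below all 3 CTL values. Neither passed by edgeR (adjusted p = 0.231 and 0.313). Gabpa, named above for the ETS word (0.43, SE 0.19), and Gabpb1 (-0.25, SE 0.23) overlapped between groups. Without replicate 3, Gabpa was at 0.63 (adjusted p = 0.00449 by edgeR). Of the 12 regulators, 2 thus lay wholly below CTL (18.8% of all genes) and 5 wholly above (20.2%). Without replicate 3, 5 of the 7 transcription genes and 6 of the 12 regulators were called higher (25.1% of the genes tested there), and 1 regulator, Myc, was called lower (-0.99, adjusted p = 0.0248 by edgeR).

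Listed respiratory chain genes had larger differences than the ribosomal protein genes. The list held 33 chosen nuclear respiratory chain subunits rather than all of them. All 33 were above 0 and none overlapped between groups, where 20.2% of all genes were apart in that direction. Their median was 2.0 (range 1.10 to 2.34), against 0.87 for the 78 genes. Of the 78, 56 lay below the lowest of the 33. The 13 protein genes of the mitochondrial genome, whose messages mitochondrial ribosomes translate, had a median of 2.08. Proteins of the cytosolic ribosome went the other way, with 77 of 78 tested below 0 and a median of -0.43. In 63 the groups did not overlap and RUNX1 FB-KO was lower (18.8% of all genes). Without RUNX1 FB-KO replicate 3 the medians were 2.38 for the 33 and -0.49 for the cytosolic proteins, against 1.15 for the 78. No test was made between these lists.

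The means of some marker lists of cell types differed in the same libraries, and those of others stayed nearer to CTL. The 15 cardiomyocyte markers, none at 0 throughout, were all higher in RUNX1 FB-KO, and their mean log2 CPM less the CTL mean was 2.77, 3.11 and 1.26 in RUNX1 FB-KO, in the order of the ribosomal protein genes (0.97, 1.16 and 0.23). Their summed level ran from 13000 to 16500 CPM in CTL and from 32800 to 123000 CPM in RUNX1 FB-KO. The 12 markers of activated fibroblasts were at -2.34, -2.63 and -0.21 (41100 to 43200 CPM summed in CTL, 8940 to 35500 in RUNX1 FB-KO), and the 12 of macrophages and monocytes at -1.40, -1.47 and -0.27 (3420 to 5380 CPM and 1380 to 3450 CPM). The 7 tested lymphocyte markers were at -2.71, -2.03 and -1.15. Markers of endothelial cells were at 0.19, 0.07 and 0.09, and those of smooth muscle cells and pericytes at -0.13, -0.37 and 0.09. These means hide single markers that differed in both directions. Log2 fold changes ran from -0.26 to 1.41 for endothelial cells (2 above 0, 6 below). For smooth muscle cells and pericytes they ran from -1.66 to 2.17 (3 above 0, 4 below). In bulk tissue, a changed share of a cell type and a changed amount of RNA per cell cannot be told apart, and the part of cell makeup in the values of the ribosomal protein genes was not tested.

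**Figure D5:**
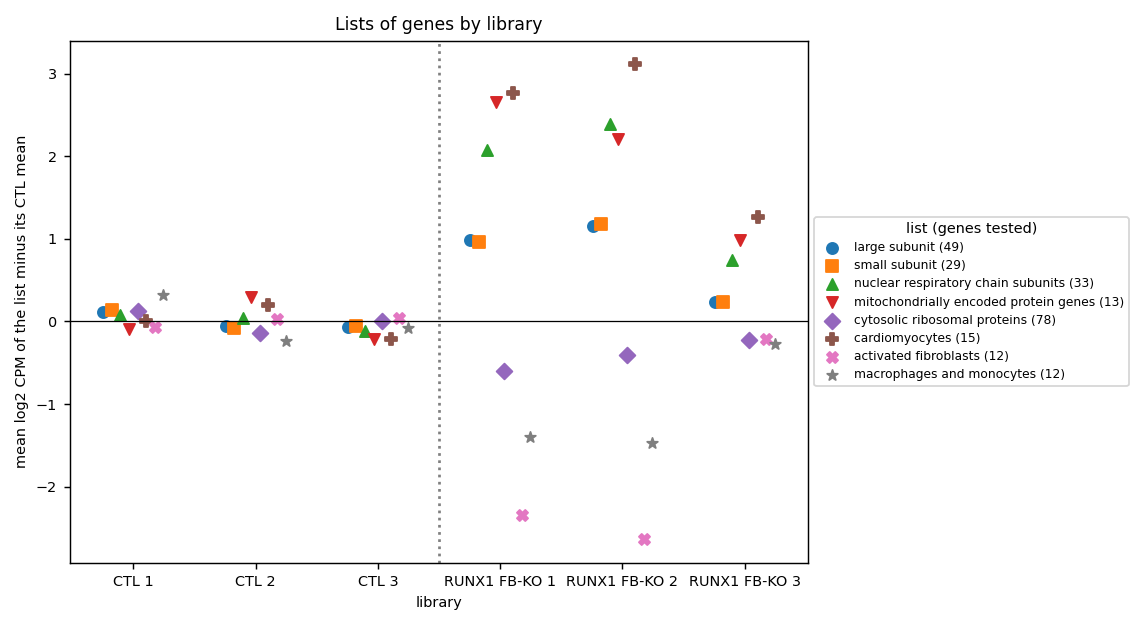
Mean log2 CPM of each list less its CTL mean, by library, with the number of tested genes in the legend. The large and small subunits coincide in every library, and in RUNX1 FB-KO they lie between the cytosolic ribosomal proteins and the respiratory chain subunits.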

How the data were processed

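Poly-A RNA from 6 hearts was analysed (CTL n = 3, RUNX1 FB-KO n = 3, grouped by sample titles). For every sample the authors deposited estimated counts, TPM and, in another column, an effective length for 116546 transcripts. Salmon 1.5.2, DESeq2 1.44.0 and mm10 (GRCm38) are named in the submitters' processing notes. Which annotation release was used is not given in the sources used here.

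Transcripts were matched to GENCODE M21 by identifier; 569 unmatched ones, with 0.078% to 0.102% of reads, were left out. Estimated counts were summed by gene, rounded, filtered with filterByExpr and scaled by TMM. Genotype was the only term of the quasi-likelihood tests (edgeR 4.0.16), whose p-values were adjusted by Benjamini-Hochberg over all genes tested (threshold 0.05). Standard errors come from F. Log2 CPM used a prior count of 2 and log2 TPM a pseudocount of 0.5. Lists are described by counts and medians with no test. Alternatives were other scalings, filters and tests (DESeq2 1.42.0, limma 3.58.1), sex as a covariate, a replicate block, an effective length offset and each library left out. The fits were tested on simulated data.

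The members and lists were chosen with earlier results of these data known. Named members are, by subunit, the 5 of smallest p, of largest and of smallest fold change, the 4 highest and lowest by TPM, those against the median's sign and those of short functional lists. Other named genes are Runx1 and the 3 of smallest p per translation, transcription or regulator list. Chosen after their values were seen were partners at shared starts and their members, Gars, Nrf1, Gabpa, Gabpb1, Gabpb2, Ppargc1a and Myc. So were members named for shared sequence or a log2 fold change near 0. Promoter sequences are from RefSeq (GRCm38.p6).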

Additional observations from a re-analysis of the deposited data

How the results depend on the processing

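The direction of the member medians held under every alternative tried. With library size alone as the scale, the medians were 0.34 over all members, 0.39 for the large and 0.23 for the small subunit. The number of members called higher was 0 by edgeR, 17 with no filter on low counts, 47 by DESeq2 and 43 at a threshold of 0.1, and 0 to 65 as each library was left out, the 65 without RUNX1 FB-KO replicate 3. It stayed at 0 under the other scalings, filters and fits. The large minus small difference in medians, 0.16, was 0.12 with an effective length offset, 0.20 by limma-voom, 0.19 by position in the ribosome and 0.09 to 0.22 as each library was left out. The log2 ratio of summed large subunit TPM, 0.04, changed sign to -0.01 without CTL replicate 2 and -0.03 without RUNX1 FB-KO replicate 2.

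Single genes near 0 changed sign. With library size alone, 58 members rather than 76 were above 0, and the 8 genes of the naming rule that changed sign were Mrpl17 (-0.25), Mrpl27 (-0.40), Mrpl33 (-0.29), Mrps10 (-0.32), Mrps11 (-0.23), Mrps18c (-0.13), Mrps26 (-0.25) and Mrps6 (-0.04). Mrpl27 (-0.06) and Mrps10 (-0.02) did so without RUNX1 FB-KO replicate 2, and ran up to 0.28 and 0.40 without replicate 3. Mrpl23 did so without CTL replicate 1 (0.17), without RUNX1 FB-KO replicate 3 (0.34, the highest of a range from -0.96) and with its pseudogene's reads added (0.62, chosen after seeing the data). The cause was not tested. Of 59 named genes, 40 passed by DESeq2, 26 with no filter and 50 without RUNX1 FB-KO replicate 3. Over all genes, in either direction, these fits called 2995 of 13950 with an adjusted p, 889 of 20211 and 6947 of 14609. Many of the 59 were named for a small p or a large fold change in these same libraries. Their counts were therefore partly set by that choice.

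The labels do not say whether the replicate numbers pair the samples. Deviations of same-numbered samples correlated at -0.051, 0.113 and 0.081, and those of differently numbered ones at -0.174 to 0.128. With 3 samples per group these values cannot decide the question. With the replicate block, 0 members were called and their median was 0.82. Mrpl23 alone among the members had fewer than 100 estimated reads in some libraries. With its pseudogene it had 504 to 736 reads, of which 3.56% to 16.8% were given to Mrpl23. Its low count thus depends on how shared reads were divided.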

Other observations

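Within Mrpl3, reads were divided unequally between transcripts. The longest protein-coding transcript, of 3972 bases, was given 22.4, 36.2 and 45.2 estimated reads in CTL and 243, 153 and 97.6 in RUNX1 FB-KO. The protein-coding transcript of 2309 bases was given 151, 121 and 121 reads in CTL and 196, 128 and 117 in RUNX1 FB-KO. As unscaled reads, ranges did not overlap for the first and did for the second. TMM factors were 0.765 and 0.732 in RUNX1 FB-KO replicates 1 and 2, against 1.16 to 1.21 in CTL. As CPM, these replicates would therefore stand higher relative to CTL for both transcripts. A transcript annotated for nonsense-mediated decay, of 1394 bases, was given more reads than either (499, 451 and 360 in CTL, 626, 651 and 567 in RUNX1 FB-KO). These transcripts were chosen after their values were seen, and Salmon estimates of transcripts that share sequence are uncertain.

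Markers of endothelial cells (8 genes) had a median log2 fold change of -0.07 (range -0.26 to 1.41). Those of smooth muscle cells and pericytes (7 genes) had a median of -0.17 (range -1.66 to 2.17). The median was 0.87 for the mitochondrial ribosomal protein genes.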
